A study of Homo sapiens with 6 samples.

Results

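The genes described here are 10 sensors of nucleic acids in the cytosol and their closest partners: CGAS, STING1, RIGI (listed in the files as DDX58), IFIH1, DHX58, MAVS, TBK1, TREX1, IFI16 and EIF2AK2. They were taken from the 16390 genes listed by name and gene number, a rule that uses no measured value, and all 10 passed the filter on low counts. The set itself was chosen with earlier results of these data known. The study asked how bladder cancer cells respond to RC48, an antibody-drug conjugate (disitamab vedotin) whose antibody binds ERBB2 and whose payload, monomethyl auristatin E, blocks microtubule assembly. Total RNA of SW780, an established human bladder cancer line that the study uses as a luminal type, was sequenced in 3 libraries of cells exposed to RC48 (25 µg/ml by the study's methods) and 3 libraries of Control cells. No other agent or allele is named for either group, and neither the exposure time nor whether replicates were separate cultures is given in the sources used here, so p-values measure only the spread between these libraries. RC48 and Control stand under the heading of genotype in the labels, and all 6 libraries are of this 1 cell line. In such bulk RNA, fewer cells with a transcript and less of it per cell cannot be told apart.

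Cells detect misplaced or foreign nucleic acid with a small set of proteins. Double-stranded RNA in the cytosol is bound by the helicases RIG-I (RIGI) and MDA5 (IFIH1), which signal through the mitochondrial adaptor MAVS, and by the kinase PKR (EIF2AK2), which stops translation. Cytosolic DNA is bound by cGAS (CGAS), whose cyclic dinucleotide product activates STING (STING1) at the endoplasmic reticulum. Both branches meet at the kinase TBK1, which phosphorylates IRF3 and so leads to type I interferon. Many of these sensors are themselves interferon-stimulated genes, and DNA enclosed in micronuclei after faulty mitosis is a known ligand of cGAS.

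The 6 libraries held 16453233 to 17988030 estimated counts, so depth differed little. The 3 RC48 libraries were far less alike than the Control libraries: chi-square divided by its degrees of freedom, over 12527 genes and near 1 under sampling noise alone, was 1.43 to 11.2 between Control libraries and 21.4 to 129.9 between RC48 libraries, highest for RC48 replicates 1 and 2. All 11 urothelial and epithelial markers searched, such as KRT7, GATA3 and EPCAM, were at 1 CPM (counts scaled to library size by edgeR's TMM method) or more in every library. EPCAM and FOXA1 were lower in every RC48 library than in every Control library, which was so for 14.1% of all genes tested. KRT7 and ELF3 were higher in every RC48 library, which was so for 17.4%, and in the other markers of this list the groups overlapped. Of 9 leukocyte markers listed, 3 reached 1 CPM in every library and their list summed to 431.7 to 466.2 CPM in Control and 435.1 to 475.6 CPM in RC48, most of it LCP1, while PTPRC, which defines leukocytes, had 0 counts in the Control libraries and 1, 1 and 0 counts in the RC48 libraries. Of the 9 leukocyte markers, 5 were higher in every RC48 library than in every Control library, against 17.4% of all genes tested. The 9 include genes too low to be tested, such as PTPRC, so these shares are not on the same basis. ITGAM, CD3E and CD14 were under 1 CPM in every Control library. ITGAM had 0, 5 and 0 counts in Control and 69, 54 and 65 in RC48. CD3E had 5, 4 and 7 against 23, 11 and 17 counts, and CD14 had 6, 8 and 4 against 23, 14 and 12 counts. CD68 and CORO1A, which with LCP1 are the 3 at 1 CPM or more, had 14.5 to 17.1 CPM in Control and 17.5 to 35.3 CPM in RC48. In RC48 replicate 2 they had 17.5 and 18.2 CPM. The 6 fibroblast markers listed summed to 443.7 to 475 CPM in Control and 444.6 to 558.5 CPM in RC48, most of it COL3A1 and LUM. COL3A1 was higher in every RC48 library (263 to 299 against 357 to 446 CPM), as was COL1A1 (9.39 to 10.4 against 12.2 to 19.2 CPM). LUM was lower in every one (166 to 171 against 67.9 to 114 CPM), and DCN, PDGFRA and PDGFRB had 0 to 2 counts. The 5 endothelial markers summed to 27.9 to 29.7 CPM and 18.4 to 24.96 CPM, with KDR and TEK at 0 or 1 counts. The part of these markers in the results was not tested.

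With the counts as deposited, none of the 10 sensor genes passed the test. In the quasi-likelihood test of edgeR, adjusted by Benjamini-Hochberg over 13055 genes, 0 of the 10 had an adjusted p under 0.05, against a background of 2.21% of all genes tested (1.98% higher and 0.230% lower in RC48). At an unadjusted p under 0.05 there were 2 of the 10, IFIH1 and DHX58, against 19.1% of all genes. DESeq2 called the same 2 genes against a background of 4.78%. Limma on log2(TPM+1) with 6 libraries called 0, against a background of 1.69%. Limma's voom with library weights called 8 of the 10 where it called 61.4% of all genes. With the 5 libraries whose deposited TPM was at hand, which lack RC48 replicate 2, limma called DHX58 and TREX1 higher and CGAS and TBK1 lower, against a background of 22.2%. In 3 members, DHX58, IFIH1 and STING1, every RC48 library was above every Control library, which was so for 17.4% of all genes tested, and in 0 members was every RC48 library below, against 14.1%. The plot of CPM by library shows how far the RC48 libraries spread around their means, in contrast to the Control libraries.

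**Figure D1:**
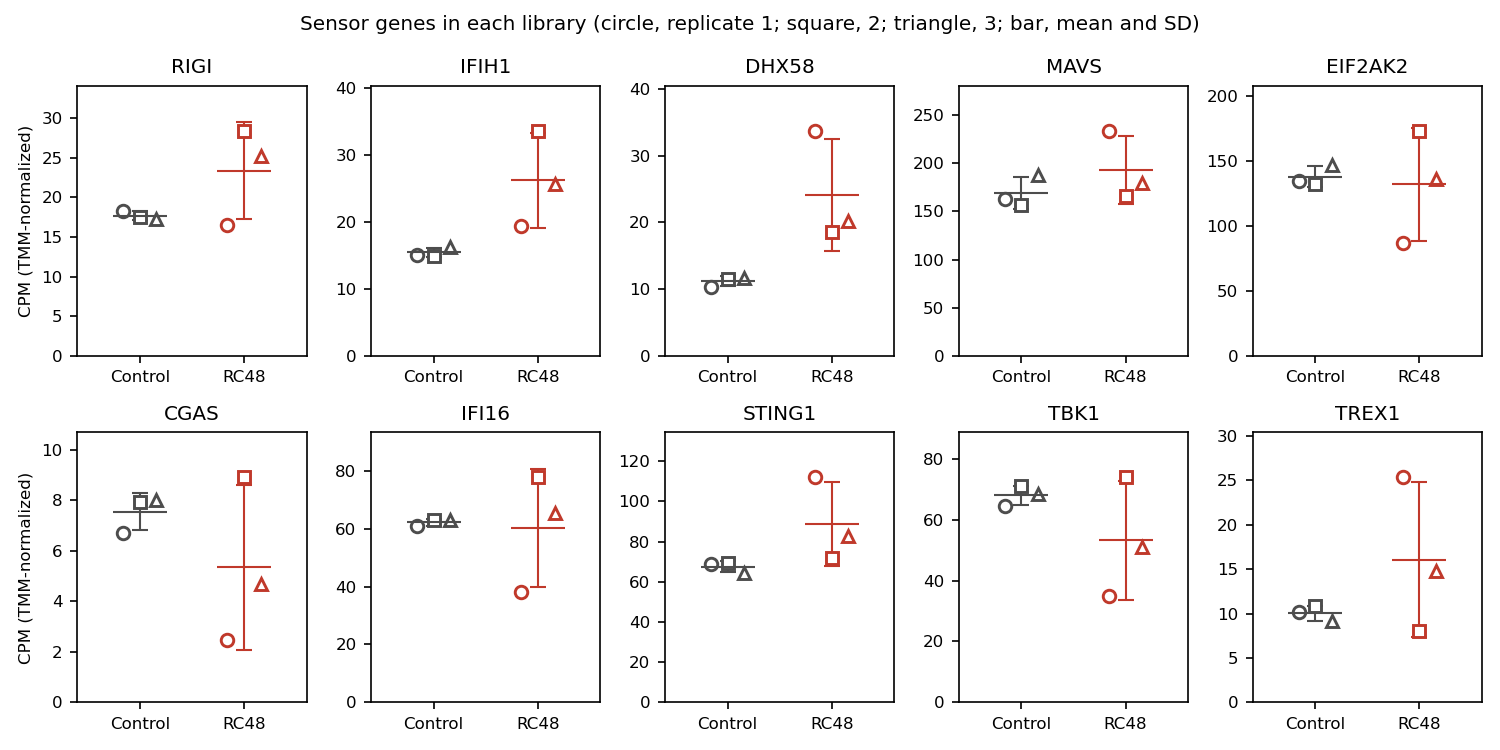
CPM (TMM-normalized, linear axis from 0, a scale for each panel) of each of the 10 sensor genes in the 3 Control and 3 RC48 libraries, with symbols for the replicate and bars for the mean and SD. In DHX58, IFIH1 and STING1 the groups do not overlap, and RC48 replicate 1 is the highest or lowest RC48 library in all 10 panels, with RC48 replicate 2 at the other end of the RC48 range.

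In RC48 replicates 1 and 3 the direction of the members moved with the GC content of their transcripts. GC content of the members ran from 40.2% (RIGI) to 62.1% (TREX1), which is about the span of the 10th to 90th percentile of all genes tested, 40.0% to 62.3%. In RC48 replicate 1, 4 of the 4 members above 50% GC (MAVS, STING1, DHX58, TREX1) and 1 of the 6 below it (IFIH1) were higher than the Control mean. In RC48 replicate 2 it was 2 of 4 and 6 of 6, and in RC48 replicate 3 it was 4 of 4 and 3 of 6. Such a trend also ran through all genes of RC48 replicates 1 and 3 and not of replicate 2: over 12966 genes, which share a library and its depth, Spearman's rho between GC content and the log2 ratio to the Control mean was 0.74 in RC48 replicate 1, -0.02 in replicate 2 and 0.57 in replicate 3. Among the 10% of genes with the lowest GC content the median log2 ratio was -1.01, 0.02 and -0.40 in these libraries, and among the 10% with the highest it was 0.66, 0.0026 and 0.24. The source of this trend was not tested. Each member and each called gene below is therefore given also with a correction that subtracts each library's smooth trend on GC content, and for RC48 replicate 2, the library with the flattest trend, taken alone.

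**Figure D2:**
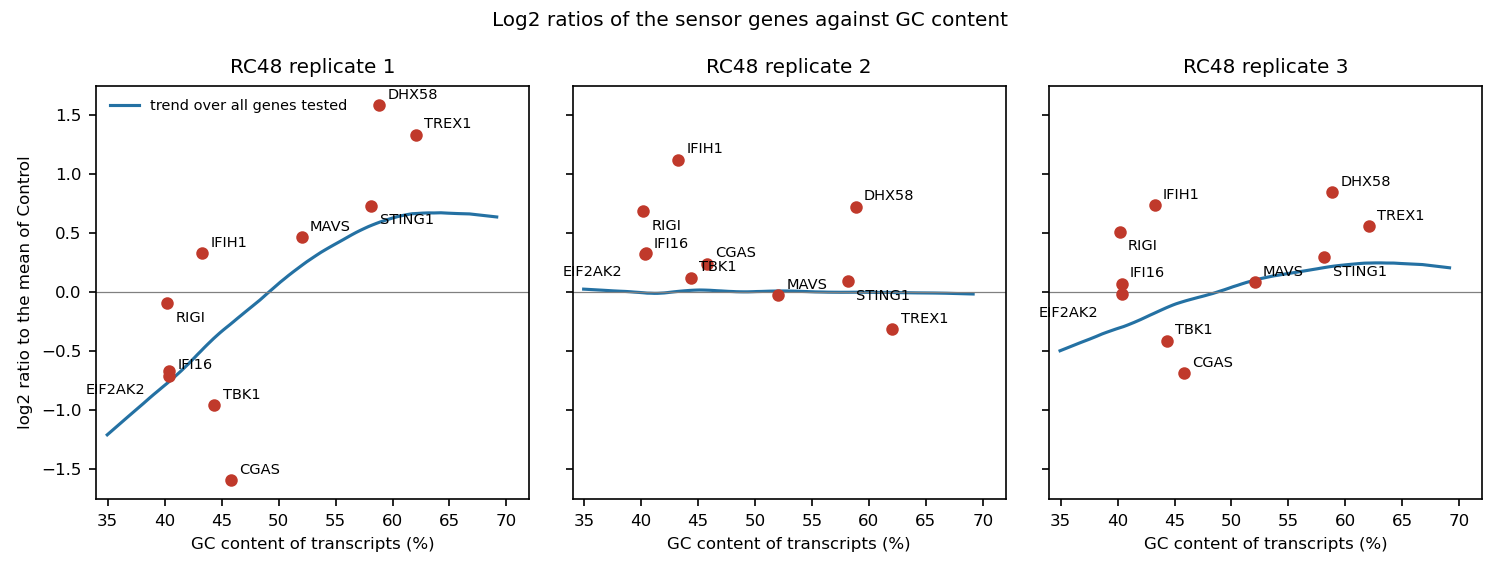
Log2 ratio of each sensor gene to the mean of the Control libraries (vertical) against the GC content of its transcripts in percent (horizontal), one panel for each RC48 library, with the smooth trend over all genes tested as a line. The line climbs with GC content in RC48 replicates 1 and 3 and is flat in RC48 replicate 2, and 6 members (RIGI, IFIH1, DHX58, STING1, IFI16 and EIF2AK2) lie above it in all 3 libraries.

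With that correction, 3 of the 10 members rose and 0 fell: RIGI, IFIH1 and DHX58, the 3 RIG-I-like receptors, against a background of 4.47% of all genes called higher and 2.57% called lower (7.04% in all). The same 3 genes, and no other member, were called from RC48 replicate 2 alone against the 3 Control libraries (background 3.41% higher) and when RC48 replicate 1 was left out (background 4.61% higher). Leaving out RC48 replicate 2 gave another set, DHX58, IFIH1, STING1 and TREX1 higher and CGAS and TBK1 lower, where 28.3% of all genes were called (14.1% in each direction). The corrected CPM separated the groups in 6 members, which added RIGI, IFI16 and EIF2AK2 to the earlier 3, against 17.0% of all genes tested, with 0 members lower in every library against 16.6%.

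RIGI encodes RIG-I, which binds short RNA with a free triphosphate end, and IFIH1 encodes MDA5, which binds long double-stranded RNA. RIGI (chr9:32455302-32526196 in GRCh38.p14) and IFIH1 (chr2:162267074-162318684) lie on the minus strand. Their promoters are shown because both genes were called after the correction. DHX58 was called with them, but no promoter window of it was at hand, so its promoter was not searched. The runs below are the 170 bases before each RefSeq start, 5′ to 3′ on the gene's own strand, at chr2:162318685-162318854 for IFIH1 and chr9:32526197-32526366 for RIGI, with capitals for matches to the core of the interferon-stimulated response element (GAAA, any 2 bases and GAAA again, on either strand) and to the kappaB motif.
IFIH1: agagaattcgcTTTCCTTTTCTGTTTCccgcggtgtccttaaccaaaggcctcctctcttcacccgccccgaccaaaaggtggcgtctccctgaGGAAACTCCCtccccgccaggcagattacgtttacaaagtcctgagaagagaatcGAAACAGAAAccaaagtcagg
RIGI: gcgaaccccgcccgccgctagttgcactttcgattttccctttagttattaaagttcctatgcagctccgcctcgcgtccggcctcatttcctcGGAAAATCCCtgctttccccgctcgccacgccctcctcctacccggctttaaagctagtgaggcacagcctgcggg
Each holds a kappaB match whose first base lies 76 bases before the start, GGAAACTCCC in IFIH1 and GGAAAATCCC in RIGI as printed, which match on the opposite strand. IFIH1 holds 3 response element matches, of which those starting 159 and 153 bases before the start overlap each other and read on the opposite strand, and the one 21 bases before it reads on the same strand. RefSeq windows of 300 bases were at hand for 7 members. EIF2AK2 is the other member with a response element match, GAAAACGAAA, beginning 6 bases before its start. Of 35116 windows, 3.57% hold this core, 11.3% a kappaB match and 7.66% the GAS motif TTCNNNGAA, which had a match in 0 members. These matches are of letters alone.

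IFIH1 stood at 15.1, 15.01 and 16.3 CPM in Control replicates 1, 2 and 3 and at 19.4, 33.6 and 25.8 CPM in RC48 replicates 1, 2 and 3. The groups did not overlap (exact permutation test, two-sided, p = 0.1, the smallest that 3 against 3 allows), and RC48 replicate 1 was nearest to Control. The mean went from 15.5 ± 0.729 to 26.3 ± 7.11 CPM (SD, n = 3), a log2 fold change of 0.76 (SE 0.21, 95% interval 0.29 to 1.24) with an edgeR adjusted p of 0.135. With the correction for GC content it was 0.96 (SE 0.10, edgeR adjusted p = 0.0013), and from RC48 replicate 2 alone 1.11. Corrected CPM was 14.0, 14.1 and 14.8 in Control and 25.4, 31.1 and 27.0 in RC48, so the 3 RC48 libraries came closer together. The trend for genes of its GC content, 43.3%, was -0.50 in RC48 replicate 1, where IFIH1 itself was at a log2 ratio of 0.33.

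RIGI had 18.3, 17.5 and 17.2 CPM in Control and 16.52, 28.4 and 25.2 CPM in RC48. RC48 replicate 1 lay just below all Control libraries and the other two RC48 libraries lay above them. This gave a log2 fold change of 0.40 (SE 0.21, 95% interval -0.07 to 0.88, edgeR adjusted p = 0.296). RIGI has the lowest GC content of the members, and the trend there was -0.78 in RC48 replicate 1, -0.01 in replicate 2 and -0.31 in replicate 3. With the correction the log2 fold change was 0.73 (SE 0.09, edgeR adjusted p = 0.0027), with 16.3, 15.7 and 14.8 corrected CPM in Control against 24.98, 25.2 and 27.5 in RC48. From RC48 replicate 2 alone it was 0.67.

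DHX58 encodes LGP2, the RIG-I-like receptor without the signalling domains, which tunes the output of the other two. It lies at chr17:42101411-42112714. Its CPM was 10.3, 11.6 and 11.7 in Control and 33.7, 18.5 and 20.1 in RC48, where replicate 1, the lowest RC48 library for IFIH1 and RIGI, was the highest. The groups did not overlap (two-sided exact permutation p = 0.1), and the mean went from 11.2 ± 0.755 to 24.1 ± 8.35 CPM (SD, n = 3). The log2 fold change of 1.10 (SE 0.24, 95% interval 0.54 to 1.66) was the highest among the 10 members and had an edgeR adjusted p of 0.0706. DHX58 is GC-rich (58.8%), with a trend of 0.59 in RC48 replicate 1, and the corrected log2 fold change was lower, 0.79 (SE 0.13, edgeR adjusted p = 0.0087). RC48 replicate 2 alone gave 0.71. The corrected CPM of 11.2, 12.5 and 13.2 in Control and 24.6, 20.4 and 19.0 in RC48 kept the groups apart.

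MAVS, the adaptor on mitochondria that both RIG-I and MDA5 engage (chr20:3846834-3876118), had 163, 157 and 188 CPM in Control and 234, 166 and 180 CPM in RC48. The groups overlapped, with RC48 replicate 1 alone above them. Its log2 fold change of 0.19 (95% interval -0.18 to 0.56, edgeR adjusted p = 0.456) was 0.07 after the correction (edgeR adjusted p = 0.716) and -0.04 from RC48 replicate 2 alone. A difference between the fold changes of MAVS and its receptors was not tested.

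EIF2AK2 (chr2:37099210-37156980), whose product PKR phosphorylates the translation factor eIF2 alpha on binding double-stranded RNA, stood at 135, 133 and 147 CPM in Control and at 86.9, 173 and 136 CPM in RC48. RC48 replicate 1 was far below the Control libraries and RC48 replicate 2 above them. Its log2 fold change was -0.06 (SE 0.23, 95% interval -0.60 to 0.47, edgeR adjusted p = 0.864). After the correction the RC48 libraries lay at 130.0, 154 and 148 CPM, above the Control libraries at 120, 119 and 127, with a log2 fold change of 0.24 (SE 0.09) and an edgeR adjusted p of 0.141. RC48 replicate 2 alone gave 0.32. This gene and IFI16 were called higher in a single alternative each, without RC48 replicate 1 and with the correction, at 0.30 (edgeR adjusted p = 0.0199) and 0.34 (edgeR adjusted p = 0.0124), where 6.56% of all genes were called higher.

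Among the sensors of DNA, CGAS (the enzyme cGAS, chr6:73423711-73452297) had the fewest counts of the members, 116, 137 and 136 in Control and 41.01, 156 and 84 in RC48. In CPM this was 6.71, 7.94 and 8.01 against 2.49, 8.91 and 4.68, so that RC48 replicates 1 and 3 were below every Control library and RC48 replicate 2 above. This gave a log2 fold change of -0.49 with the widest interval of the 10 members (-1.41 to 0.42, edgeR adjusted p = 0.436). Its GC content of 45.8% had a trend of -0.27 in RC48 replicate 1, against a log2 ratio of CGAS there of -1.60, and the corrected log2 fold change was -0.41 (edgeR adjusted p = 0.442). Without RC48 replicate 2 CGAS was called lower, at -1.07 (edgeR adjusted p = 0.0301), while RC48 replicate 2 alone gave 0.23. The direction of CGAS therefore rested on which RC48 libraries were kept.

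IFI16 (chr1:158999976-159055151), a nuclear and cytosolic DNA-binding protein of the PYHIN family that works with STING, had 60.8, 62.9 and 62.9 CPM in Control and 38.0, 77.7 and 65.3 CPM in RC48. The RC48 libraries lay on either side of the narrow Control range. RC48 replicate 2 alone gave a log2 fold change of 0.31. The log2 fold change of -0.04 (95% interval -0.60 to 0.52, edgeR adjusted p = 0.912) with all 6 libraries became 0.26 (SE 0.10, edgeR adjusted p = 0.151) with the correction, after which RC48 replicate 1, at 56.9 CPM, was close to the highest Control library, at 56.5 CPM.

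STING1 (the adaptor STING, chr5:139475533-139482758) had 68.9, 69.1 and 64.3 CPM in Control and 112, 71.8 and 82.6 CPM in RC48. The groups did not overlap (two-sided exact permutation p = 0.1), though RC48 replicate 2 was close to Control. The log2 fold change was 0.40 (SE 0.18, 95% interval -0.01 to 0.80, edgeR adjusted p = 0.266), and after the correction 0.12 (SE 0.07, edgeR adjusted p = 0.341). From RC48 replicate 2 alone it was 0.08. STING1 is GC-rich (58.2%), and the trend there, 0.56 in RC48 replicate 1, stands beside its own log2 ratio of 0.73 in that library.

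TBK1 (chr12:64452120-64502114), the kinase shared by both branches, had 64.6, 71.0 and 68.3 CPM in Control and 34.9, 73.8 and 51.0 CPM in RC48, with RC48 replicates 1 and 3 below and RC48 replicate 2 above all Control libraries. Its log2 fold change was -0.35 (95% interval -0.93 to 0.22, edgeR adjusted p = 0.389), and -0.22 (edgeR adjusted p = 0.406) with the correction. TREX1 (chr3:48465830-48467645), the exonuclease that degrades cytosolic DNA before cGAS can bind it, had 10.2, 10.8 and 9.13 CPM in Control and 25.3, 8.05 and 14.8 CPM in RC48. Here RC48 replicates 1 and 3 were above and RC48 replicate 2 below every Control library, the reverse of TBK1 and CGAS. For TREX1 it was 0.68 (95% interval -0.17 to 1.52, edgeR adjusted p = 0.308), and 0.29 (edgeR adjusted p = 0.426) with the correction. Without RC48 replicate 2, TBK1 was called lower (-0.66, edgeR adjusted p = 0.0332) and TREX1 higher (0.99, edgeR adjusted p = 0.0256). RC48 replicate 2 alone gave 0.11 for TBK1 and -0.33 for TREX1.

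**Figure D3:**
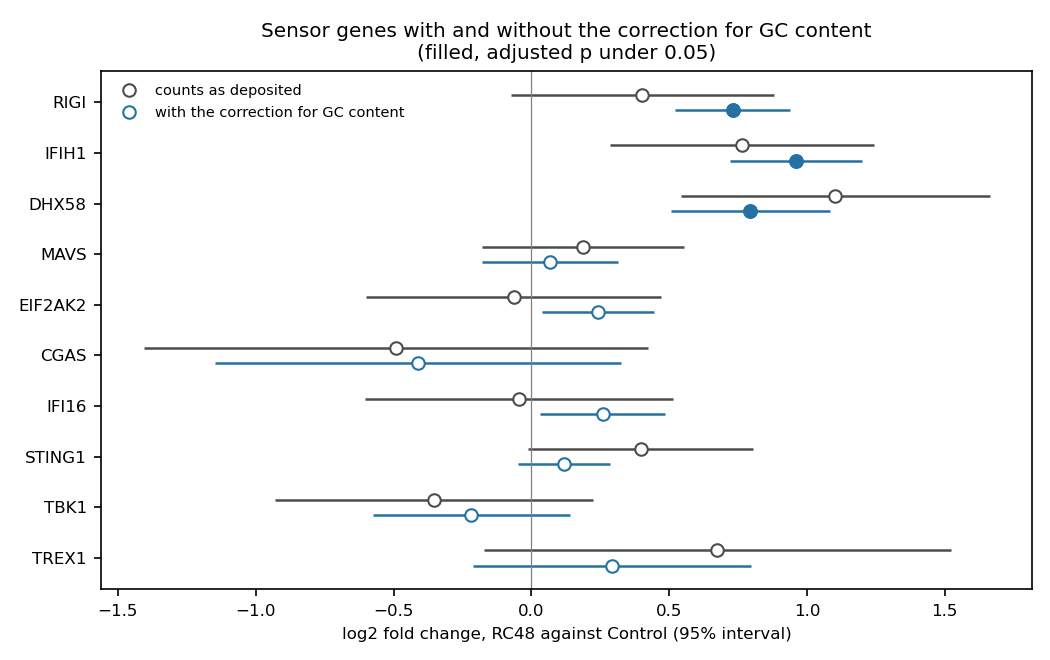
Log2 fold change of RC48 against Control for each sensor gene (points) with its 95% interval (lines), from the counts as deposited and with the correction for GC content, filled where the edgeR adjusted p is under 0.05. RIGI, IFIH1 and DHX58 are filled with the correction, at 0.73, 0.96 and 0.79, and the intervals of all 10 members shorten with it.

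Over 20 alternatives, the log2 fold change of IFIH1 ran from 0.37 to 1.11 with 8 calls, that of DHX58 from 0.67 to 1.26 with 10 calls and that of RIGI from 0.08 to 0.74 with 6 calls, and none of these turned negative. In IFIH1, DHX58 and RIGI the calls include the fit of RC48 replicate 2 alone, whose p-values rest on the spread between Control libraries. STING1 ran from 0.08 to 0.53 with 2 calls. The others took both signs. CGAS ran from -1.07 to 0.23, TBK1 from -0.79 to 0.11 and TREX1 from -0.33 to 0.99, each with 3 calls. MAVS ran from -0.04 to 0.28, IFI16 from -0.47 to 0.34 and EIF2AK2 from -0.44 to 0.32, each with 1 call. The median over the 10 members was 0.29 on the log2 scale beside 0.02 over all genes tested, and 0.25 beside -0.01 with the correction.

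**Figure D4:**
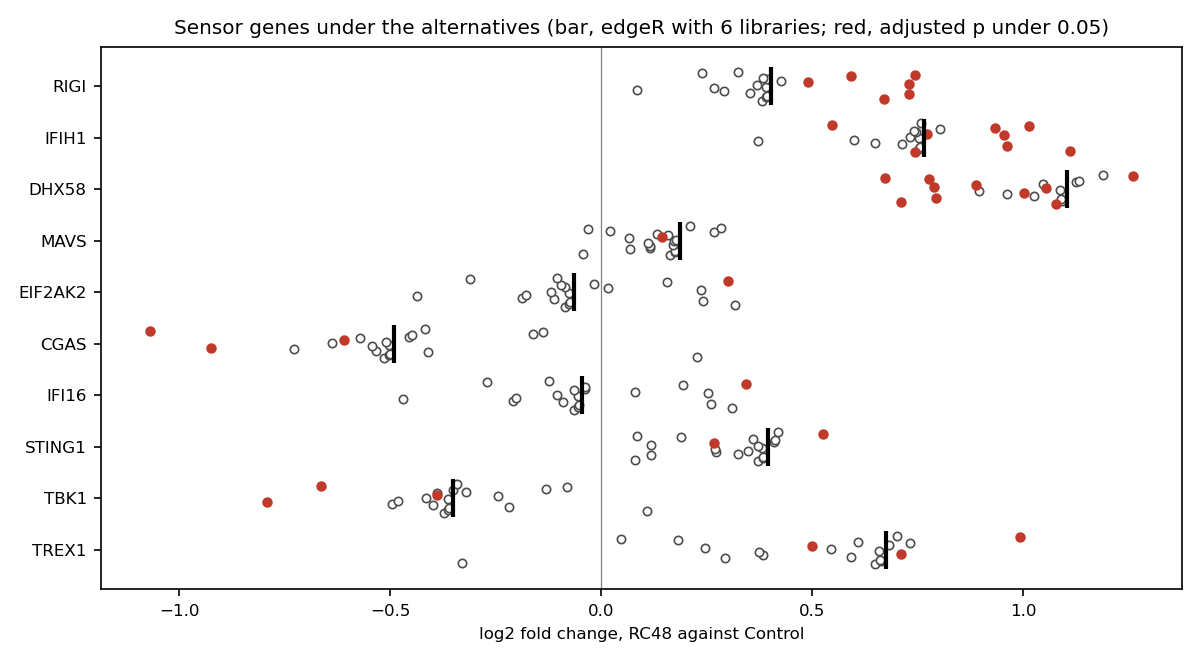
Log2 fold change of RC48 against Control for each sensor gene (horizontal) under each of 20 alternatives (circles, red where the adjusted p is under 0.05), with the value from edgeR on 6 libraries as a bar. RIGI, IFIH1, DHX58 and STING1 stay above 0 in every alternative, and the circles of the other 6 members fall on both sides.

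Levels of the 10 genes can be compared with each other only per length, as TPM, in which counts are divided by transcript length and scaled to the library. In Control cells, STING1 was the most abundant at 65.6 ± 0.701 TPM, followed by IFI16 at 45.7 ± 3.01 and TBK1 at 44.1 ± 3.25 TPM (SD, n = 3), whose ranges overlapped. MAVS at 26.1 ± 3.98 and EIF2AK2 at 25.4 ± 2.99 TPM overlapped likewise, and TREX1 was at 22.6 ± 0.79 TPM. The RIG-I-like receptors were lower, DHX58 at 8.66 ± 0.93 and IFIH1 at 8.32 ± 0.846 TPM with overlapping ranges and RIGI at 7.19 ± 0.281 TPM. CGAS was the lowest at 4.597 ± 0.613 TPM, so that STING1 exceeded the enzyme that feeds it by 14.45 ± 1.87 times in TPM (SD, n = 3 Control libraries).

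In RC48 the order of mean TPM was the same except for TREX1, which moved from the 6th to the 4th place at 31.5 ± 13.7 TPM, with MAVS at 28.2 ± 3.71 and EIF2AK2 at 23.4 ± 8.97 TPM next, all with overlapping ranges. STING1 was at 79.9 ± 11.9 TPM and CGAS at 3.17 ± 2.11 TPM. The TPM of IFIH1 divided by that of RIGI was 1.09, 1.13 and 1.25 in Control and 1.54, 1.57 and 1.35 in RC48, which did not overlap (two-sided exact permutation p = 0.1, 0.5 after Benjamini-Hochberg adjustment over 5 such ratios). RIGI and IFIH1 have GC contents of 40.2% and 43.3%, where the trend of RC48 replicate 1 is -0.78 and -0.50. In RC48 replicate 2 it is -0.008 and 0.0033, and in RC48 replicate 3 -0.31 and -0.18. The part of the trend in this ratio was not tested. The TPM of STING1 divided by that of CGAS was 14.45 ± 1.87 in Control and 69.7, 12.94 and 27.97 in the RC48 libraries, on both sides of the Control mean (two-sided exact permutation p = 0.3). TPM of RC48 replicate 2 was rebuilt from its counts.

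Around these 10 genes, 161 others of nucleic acid sensing were read in 8 lists fixed by function, of which 156 were matched and 146 tested. Of them 6 rose and 0 fell in edgeR's test of the counts as deposited, and 16 rose and 1 fell with the correction, against the same backgrounds of 2.21% and 7.04%. The median log2 fold change was 0.04 in both fits, beside 0.02 and -0.01 over all genes tested.

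Of 22 cofactors and ubiquitin ligases of the RIG-I-like receptors tested, 1 rose, TRIM31, a ligase that acts on MAVS, from 91.2 ± 1.24 to 199 ± 34.2 CPM (SD, n = 3; log2 fold change 1.12, SE 0.14, edgeR adjusted p = 0.00846). The abundant PCBP2 (0.32, edgeR adjusted p = 0.341) and PPP1CA (0.20, edgeR adjusted p = 0.412) did not pass, and the median of the list was -0.04. With the correction 2 of this list rose, TRIM31 and CYLD, a deubiquitinase that removes chains from RIG-I (0.50, edgeR adjusted p = 0.0176). Among 22 kinases, adaptors and transcription factors below MAVS and STING, 2 rose. IKBKE, the kinase closest to TBK1, went from 14.7 ± 0.4 to 36.9 ± 8.8 CPM (1.32, SE 0.19, edgeR adjusted p = 0.0127), and IRF7, the interferon-inducible partner of IRF3, from 3.22 ± 0.297 to 8.77 ± 1.66 CPM (1.44, SE 0.20, edgeR adjusted p = 0.0117). OPTN, TRAF3 and NLRC5 joined them with the correction, at 0.70, 0.52 and 0.76, and the list had a median of 0.34, or 0.20 corrected. Its most abundant genes not called were DDX3X (-0.20) and TAX1BP1 (-0.18).

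Of 24 regulators and carriers of the cGAS and STING route tested, 1 rose, USP18, a protease that removes ISG15 and limits interferon signalling, from 8.52 ± 0.414 to 16.2 ± 1.17 CPM (0.93, SE 0.14, edgeR adjusted p = 0.0157). SLC19A1, a folate carrier that also imports cyclic dinucleotides, was the 1 gene that fell with the correction (-0.41, edgeR adjusted p = 0.0377). The most abundant genes of this list not called were TMED2 (-0.42) and G3BP1 (-0.30). Of 20 other DNA sensors tested 0 passed, with HNRNPA2B1 at -0.34 and XRCC6 at -0.20, and with the correction AIM2, the DNA sensor of an inflammasome, rose by 0.97 (edgeR adjusted p = 0.00377). Of 18 other RNA sensors and double-stranded RNA binding proteins, OASL, an oligoadenylate synthetase-like protein that aids RIG-I, rose from 11.9 ± 0.587 to 24.3 ± 1.86 CPM (1.03, SE 0.13, edgeR adjusted p = 0.0087). TLR7, DDX60 and DDX60L were called with it after the correction, DDX60 at 0.92 (edgeR adjusted p = 0.00121), while ILF2 (0.04) did not pass.

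Of 20 nucleases and editing enzymes that keep self DNA and RNA from the sensors, 0 passed, with ADAR at 0.13 and APOBEC3C at 0.09, and with the correction SAMHD1 rose by 0.76 (edgeR adjusted p = 0.0176). Of 17 partners of PKR and kinases of eIF2 alpha, 0 passed in either fit, with EIF2S2 at -0.48 and EIF2S3 at -0.31 with the counts as deposited. All 6 genes of the lists that were called from the counts as deposited were called also with the correction. With any single Control library left out, only CXCL10 of them was called. Without RC48 replicate 3, CXCL10, IKBKE and TRIM31 were. The log2 fold changes of the 6 with the correction and from RC48 replicate 2 alone were 1.10 and 0.93 for TRIM31. They were 1.03 and 1.11 for IKBKE and 1.14 and 1.11 for IRF7. USP18 had 0.84 in both, OASL 0.85 and 0.91, and CXCL10, a chemokine, 5.11 and 5.07. The 11 others called with the correction kept their direction from RC48 replicate 2 alone. There SLC19A1 was at -0.55, and the others ran from 0.36 (CYLD) to 1.23 (CCL5). The plot of the lists shows most of their genes within 0.5 of 0 and the called genes to the right.

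**Figure D5:**
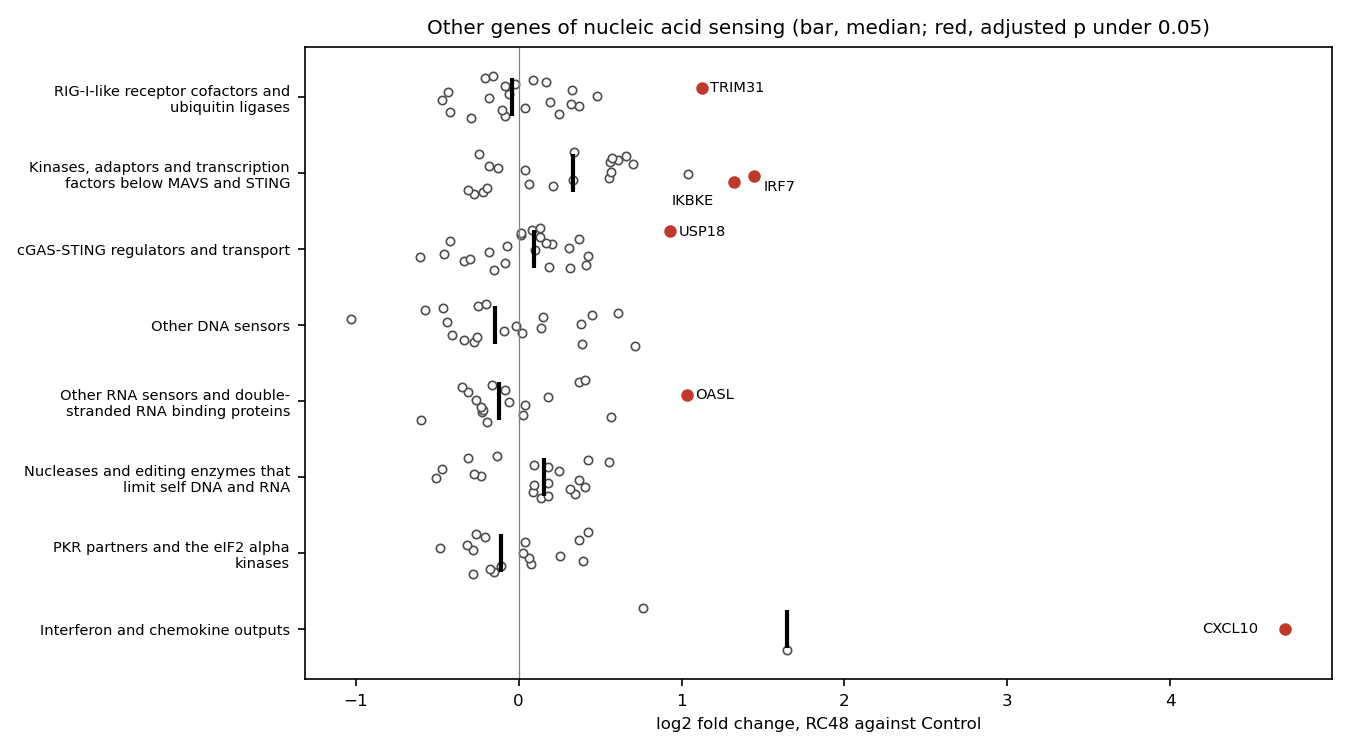
Log2 fold change of RC48 against Control (horizontal) for the tested genes of each of the 8 lists (circles, red and named where the edgeR adjusted p is under 0.05), with the median of each list as a bar. The 6 named genes, TRIM31, IKBKE, IRF7, USP18, OASL and CXCL10, are spread over 5 lists.

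At the far end of both branches stand interferons and the chemokines induced with them. The lambda interferons IFNL1, IFNL2 and IFNL3 had 0 to 2 counts in every library, which is at or under the 3 counts that a count of 0 allows, so that no difference was detectable at this depth. Of the 9 outputs listed 6 were matched. The type I interferons IFNB1, IFNE and IFNK were not matched and so were not analysed here. CXCL10, a chemokine that draws T cells, had 2, 1 and 1 counts in Control and 28, 50 and 37 counts in RC48, a log2 fold change of 4.71 (SE 0.44, edgeR adjusted p = 0.00167), a fitted value that depends on edgeR's prior count where Control has so few counts. CCL5 had 9.3, 15.38 and 6.79 counts in Control and 48.4, 25.11 and 25.09 counts in RC48 (1.65, edgeR adjusted p = 0.114), and was called with the correction at 1.48 (edgeR adjusted p = 0.0497). CXCL11 had 5, 14 and 6 counts against 12, 17 and 14 counts (0.76, edgeR adjusted p = 0.309). CXCL10 passed the filter on low counts only through the RC48 libraries, where it was high, so its repeated calls are no independent support. It was called in all 19 alternatives that tested it, RC48 replicate 2 alone among them. The filter of at least 10 counts in every library left it out.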

How the data were processed

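The authors had total RNA sequenced at BGI, used SOAPnuke to filter the reads and Bowtie2 to map them, and estimated counts per gene in RSEM. The submitters' processing notes name hg38, and no versions are named. The deposited estimated counts are RSEM values per gene without normalization, and the deposited TPM values are scaled by the authors for length and depth. TPM of RC48 replicate 2 was rebuilt here from its counts and the lengths implied by the other 5 libraries, using genes that reach 20 counts and 1 TPM (median absolute log2 difference 0.0355 over 12037 genes when tried on RC48 replicate 3).

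Estimated counts were rounded, filtered with filterByExpr, scaled by TMM and tested with edgeR 4.0.16 (glmQLFit, glmQLFTest) in R 4.3.3, over all 6 libraries without covariates, with Benjamini-Hochberg adjustment at 0.05. Counts were tested where the study's methods name limma on log2(TPM+1), which is an alternative here. GC content is the median over protein-coding transcripts of GENCODE v29, found for 16289 of 16390 genes (99.4%), and the correction enters a loess trend (span 0.3) of each library's log2 CPM as an offset. The other alternatives used DESeq2 1.42.0 and limma 3.58.1. RC48 replicate 2 alone, and the correction without RC48 replicate 1, were added after seeing the data, and in the former the lone library is assumed to vary like the Control libraries. Gene positions and promoters are from RefSeq (GRCh38.p14, the assembly hg38 names), with windows from 250 bases before to 50 bases after a start. Python 3.11.15, scipy 1.17.1 and matplotlib 3.10.9 were used. The procedure was tried on simulated data whose spread came from the Control libraries alone and whose GC trend was the fitted one. That trial cannot speak to the wider spread of the RC48 libraries.

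The members and lists were chosen with earlier results of these data known. Named are the 10 members, and from each list up to 4 called genes with the smallest p and up to 2 others with the highest mean CPM. All matched outputs are named by their counts. Genes called after the correction are named too, and were named after their values were seen. The authors' own comparisons were not used. A result that the rule would name is not reported here.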

Additional observations from a re-analysis of the deposited data

Results flagged for a closer look

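ZBP1, a sensor of nucleic acids in the Z form, was below the filter on low counts and so entered no comparison, yet had 27 counts over the RC48 libraries and 4 over the Control libraries. The counts were 1, 0 and 3 in Control and 10, 4 and 13 in RC48, so every RC48 library was above every Control library. This was so for 17.4% of all genes tested, and here it rests on 4 counts in RC48 replicate 2 against 3 in Control replicate 3. Scaled for library size the ratio was 6.65 (exact 95% interval 2.32 to 26.2, counting error only). In edgeR's quasi-likelihood test without the filter the log2 fold change was 2.62 with an adjusted p of 0.185.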

How the results depend on the processing

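Counts of called genes moved most. The 0 of 10 sensor genes became 2 with DESeq2, 3 with the correction for GC content, 5 without RC48 replicate 1 with that correction, 4 with limma on log2(TPM+1) in 5 libraries, 8 with voom and 0 to 6 when a library was left out. The 6 called genes of the lists became 11, 17, 26, 36 and 95 in the same order, and 1 to 45 with a library left out. The 288 of all genes became 676, 919, 609, 1565, 2894 and 8018, and 68 to 3726 with a library left out. Without any 1 of the 3 Control libraries 1 list gene was called (CXCL10) and 68 to 78 of all genes, without RC48 replicate 3 it was 3 and 93, without RC48 replicate 1 16 and 897, and without RC48 replicate 2 45 and 3726. The cause of these shifts was not tested.

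With each group centred on its mean, same-numbered libraries had correlations of 0.002, -0.13 and 0.005 over 13055 genes. Differently numbered libraries had -0.11 to 0.13. Whether the replicate numbers pair the samples cannot be told from these values, because RC48 replicates 1 and 3 also carry the trend on GC content. A term for the replicate number called 1 sensor gene (DHX58), 8 list genes and 331 genes in all (2.54%), and together with the GC correction 3, 14 and 675 (5.17%).

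Some log2 fold changes turned sign. With RC48 replicate 2 alone CGAS was 0.23, MAVS -0.042, TBK1 0.11, TREX1 -0.33, IFI16 0.31, EIF2AK2 0.32, PCBP2 -0.045, PPP1CA -0.044, DDX3X 0.024, TAX1BP1 0.19, G3BP1 0.029, TMED2 0.0061 and ILF2 -0.030. With the correction IFI16 was 0.26, EIF2AK2 0.24, PPP1CA -0.0894, DDX3X 0.091, TAX1BP1 0.15 and HNRNPA2B1 0.0044, and with the replicate term added IFI16 was 0.25, EIF2AK2 0.24, PPP1CA -0.0895, DDX3X 0.095 and TAX1BP1 0.15. The correction without RC48 replicate 1 gave MAVS -0.032, IFI16 0.34, EIF2AK2 0.30, PPP1CA -0.018, DDX3X 0.059 and TAX1BP1 0.14. Voom gave IFI16 0.079 and EIF2AK2 0.017. With a library left out, IFI16 ran from -0.27 (without RC48 replicate 2) to 0.19 (without RC48 replicate 1), EIF2AK2 from -0.31 to 0.16 for the same libraries, and ILF2 from -0.046 (without RC48 replicate 3) to 0.070. ILF2 was -0.018 with library sizes alone, -0.0568 with limma on log2(TPM+0.1) and -0.0567 on log2(TPM+1) in 6 libraries, and -0.085 with limma in 5 libraries. APOBEC3C was -0.047 with limma in 5 libraries. Of the other values of members, 147 kept direction and side of the threshold and 36 passed it anew. Of other named genes it was 368 and 26, with 18 that no longer passed.

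The lambda interferons had too few counts for any difference to be detectable. The RC48 libraries spread more than the Control libraries. CGAS had both the widest interval of the members and their lowest mean CPM in each group. The part of library spread and of low counts in the width of the intervals was not tested.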
